A study of Arabidopsis thaliana with 9 samples.

Results

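The wall-associated kinases examined here are the 6 genes WAK1 (AT1G21250), WAK2 (AT1G21270), WAK3 (AT1G21240), WAK4 (AT1G21210), WAK5 (AT1G21230) and WAKL10 (AT1G79680), chosen by their locus names among 22155 loci counted in rosettes of Arabidopsis thaliana. WAK1 to WAK5 form a tandem cluster, while WAKL10 is a relative elsewhere on the same chromosome. Of the 6 genes, 5 have a row of counts, and 4 passed the filter on low counts (WAK1, WAK2, WAK3 and WAKL10). WAK4 was below that filter, and WAK5 was not analysed here. Polyadenylated RNA was sequenced in 3 biological replicates of each of 3 groups. The first is PP2-A5oe, a line that overexpresses PP2-A5, the gene of a lectin that also carries a TIR domain. The second is pp2-a5, a mutant line of that gene, whose library names carry the word SALK, and the third is Col-0, labelled as wild type. All plants were under the treatment called Control. The labels give the rosette as tissue, whereas RNA was extracted, per the protocol, from seedlings aged 3 weeks. A single line stands for each altered genotype, and the labels give neither the promoter of the transgene nor how the replicates were grown, so p-values reflect the spread among these libraries alone, which may be technical.

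Wall-associated kinases span the plasma membrane, with an extracellular part that binds pectin and EGF-like repeats, and with a kinase inside the cell. They bind polymeric pectin in the wall and also oligogalacturonides, the pectin fragments released when walls are damaged by pathogens, herbivores or wounding. WAK1 is known as a receptor for oligogalacturonides whose transcript is induced by salicylic acid and pathogens. WAK2 is known for its part in cell expansion and in pectin-triggered signalling, and WAK4 for cell elongation. WAKL10 is a relative known from co-expression with defence genes.

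The cluster lies on chromosome 1 from 7423704 to 7448483 in TAIR10.1, the RefSeq assembly used for positions and sequence (the labels name TAIR10 as the build of the counts). Within its 24.8 kb the order is WAK4, WAK5, WAK3, WAK1 and WAK2, all on the plus strand. WAK1 runs from 7439171 to 7442113 with 3 exons, WAK2 from 7444749 to 7448483 with 3 exons, WAK3 from 7434235 to 7436830 with 2 annotated transcripts, and WAK4 from 7423704 to 7427041 with 4 exons. WAKL10 runs from 29979973 to 29982819 on the minus strand. The predicted proteins of the 6 genes are 732 to 769 residues long. Coding sequences of WAK1 and WAK3 are identical at 85.8% of aligned bases, those of WAK1 and WAK2 at 81.2%, and that of WAKL10 matches those of the cluster at 62.2% to 63.7%.

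Because the cluster arose from copies of one gene, some reads may not belong to a single member. Of all stretches of 50 bases in the WAK1 transcript, 7.13% occur at more than 1 place in the genome, against 12.81% for WAK3, 3.68% for WAK2, 0.85% for WAK4 and 0% for WAKL10. WAK1 and WAK3 share 78 such stretches, and WAK1 and WAK2 share 127. WAK3 holds 304 repeated stretches, of which 35 are shared with WAK2, so most of them occur in the transcript of no other member. Read length and the treatment of reads with several matches are not stated, so the counts of WAK3 in particular are uncertain. The last 994 bases of WAK2, all in its 3' untranslated part, overlap AT1G21280 on the opposite strand, and without a stated strand setting reads from those bases cannot be told apart.

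The 250 bases before the annotated start of the 4 tested genes are shown since WAK1 and WAK2, the most abundant members, have similar sequence there but moved differently in PP2-A5oe. They were read from the TAIR10.1 genome (RefSeq), 5' to 3' on the strand of the gene. Capitals mark the core of the W-box, the site of WRKY factors, as TTGAC or, on the other strand, GTCAA. Only these letters were matched, and the bases next to them were not considered, so a match need not be a full W-box.
WAK1 (chr1:7438921-7439170, plus strand): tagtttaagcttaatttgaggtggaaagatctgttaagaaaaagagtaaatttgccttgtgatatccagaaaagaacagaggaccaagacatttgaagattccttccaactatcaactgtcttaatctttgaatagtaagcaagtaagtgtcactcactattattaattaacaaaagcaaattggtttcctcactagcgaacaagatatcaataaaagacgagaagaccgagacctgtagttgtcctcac
WAK2 (chr1:7444499-7444748, plus strand): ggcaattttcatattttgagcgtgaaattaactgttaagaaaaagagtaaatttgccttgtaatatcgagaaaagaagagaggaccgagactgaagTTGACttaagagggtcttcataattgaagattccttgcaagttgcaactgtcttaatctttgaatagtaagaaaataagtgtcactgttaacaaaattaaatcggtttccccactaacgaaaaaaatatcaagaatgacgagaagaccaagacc
WAK3 (chr1:7433985-7434234, plus strand): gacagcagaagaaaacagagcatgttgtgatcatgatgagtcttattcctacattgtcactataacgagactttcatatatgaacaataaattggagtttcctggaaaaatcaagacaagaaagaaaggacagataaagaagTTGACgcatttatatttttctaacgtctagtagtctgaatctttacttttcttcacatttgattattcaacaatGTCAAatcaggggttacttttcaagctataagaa
WAKL10 (chr1:29982820-29983069, minus strand): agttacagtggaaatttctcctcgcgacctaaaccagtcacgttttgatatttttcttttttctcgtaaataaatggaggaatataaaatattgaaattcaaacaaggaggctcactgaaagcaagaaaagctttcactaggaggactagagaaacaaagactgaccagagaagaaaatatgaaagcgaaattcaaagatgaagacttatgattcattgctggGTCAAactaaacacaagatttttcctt
In these windows WAK1 and WAK2 are identical at 190 bases, 86.4% of the aligned ones, with a longest shared run of 30 bases. The other pairs of the 4 windows shown reach 61.2% to 65.8%. TTGAC does not occur in the WAK1 window, occurs once in that of WAK2 and in that of WAKL10, and has 2 matches in that of WAK3. Of 27443 promoters of protein-coding genes, 44.9% hold TTGAC on either strand in the same window. TGACG, the core bound by TGA factors, is found in the WAK2 window and in the WAK3 window, where it overlaps a TTGAC match, and in 18.6% of all promoters. The WAK3 window overlaps a noncoding gene, AT1G05643. These matches describe letters only.

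Total counts per library lay between 5408847 and 6196722. At these depths 3 counts, the floor used for an undetected gene, corresponded to 0.484 to 0.555 CPM (counts scaled to a common library total, elsewhere with TMM-scaled library sizes); such floors cover counting error only. Col-0 replicate 3 stood apart from the other Col-0 libraries. Set against replicates 1 and 2, it gave a chi-square per degree of freedom of 5.65 and 6.91, while other pairs within a group had 1.59 to 3.44. Mitochondrial transcripts took 0.178% of its counts and 0.132% in PP2-A5oe replicate 2, against 0.0741% to 0.0878% elsewhere. The PP2-A5 transcript itself was not analysed here. Of 4 leaf markers, CAB2 and CAB3 had rows and together gave 5163 to 5736 CPM in PP2-A5oe, 5000.0 to 5219 CPM in pp2-a5 and 6137 to 7068 CPM in Col-0. Both were called lower than in Col-0 in PP2-A5oe and in pp2-a5, as were 10.5% and 8.47% of all tested genes. All 5 root and root hair markers had rows, none at 0 throughout, and their summed level was 25.6 to 32.3 CPM in PP2-A5oe, 11.1 to 15.9 CPM in pp2-a5 and 7.42 to 8.40 CPM in Col-0. Of the 3 root markers tested, 3 rose in PP2-A5oe and 2 in pp2-a5, against 14.5% and 12.3% of all tested genes. The part that these shifts of leaf and root markers had in the results below was not tested. Levels of guard cell markers (96.1 to 102 CPM in PP2-A5oe, 101 to 106 CPM in pp2-a5, 93.7 to 106 CPM in Col-0), trichome markers (2.94 to 6.80 CPM in PP2-A5oe, 4.22 to 4.63 CPM in pp2-a5, 5.23 to 6.29 CPM in Col-0) and the flower markers AP3 and PI (6.96 to 8.99 CPM in PP2-A5oe, 6.72 to 9.26 CPM in pp2-a5, 6.35 to 8.06 CPM in Col-0) were measured too. Guard cell and flower markers overlapped between all groups, trichome markers in pp2-a5 lay below those in Col-0, and no seed marker was analysed here.

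WAK1 carried most of the wall-associated kinase signal, and its level was highest in pp2-a5, intermediate in PP2-A5oe and lowest in Col-0. The cluster as a whole gave 218 to 223 CPM in PP2-A5oe, 386 to 410 CPM in pp2-a5 and 175 to 198 CPM in Col-0. In pp2-a5 all 4 tested genes were above Col-0, whereas in PP2-A5oe WAK1 was above Col-0, WAK2 below it, and WAK3 and WAKL10 near it. Per kb of annotated transcript, the order of levels among the genes was the same in each group: WAK1, WAK2, WAK3, WAKL10 and WAK4. In Col-0 these levels were 43.0 ± 2.38, 17.0 ± 1.47, 1.60 ± 0.561, 0.909 ± 0.149 and 0.221 ± 0.157 CPM per kb (SD, n = 3); replicates of WAK3 and WAKL10 overlapped, while those of the other neighbours in this order did not. Fewer cells of a type and less RNA per cell cannot be told apart in these bulk samples.

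**Figure D1:**
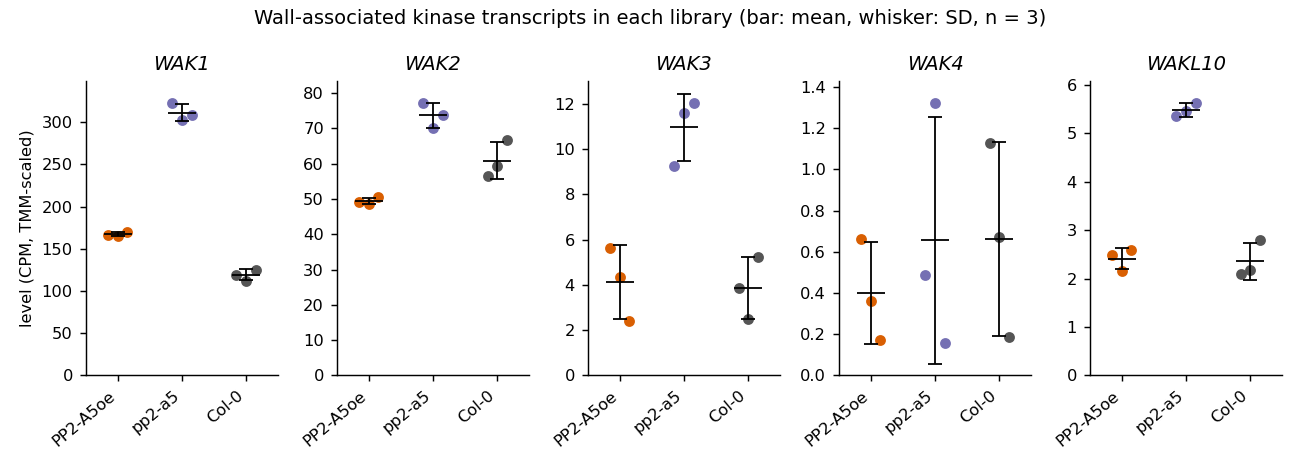
Level of each measured wall-associated kinase (y axis, CPM with TMM-scaled library sizes, separate scale per gene) in the 3 groups; points are libraries, bars are means and whiskers the SD. WAK1, WAK3 and WAKL10 in pp2-a5 lie above all other libraries, WAK2 lies lowest in PP2-A5oe, and WAK4 overlaps throughout.

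**Figure D2:**
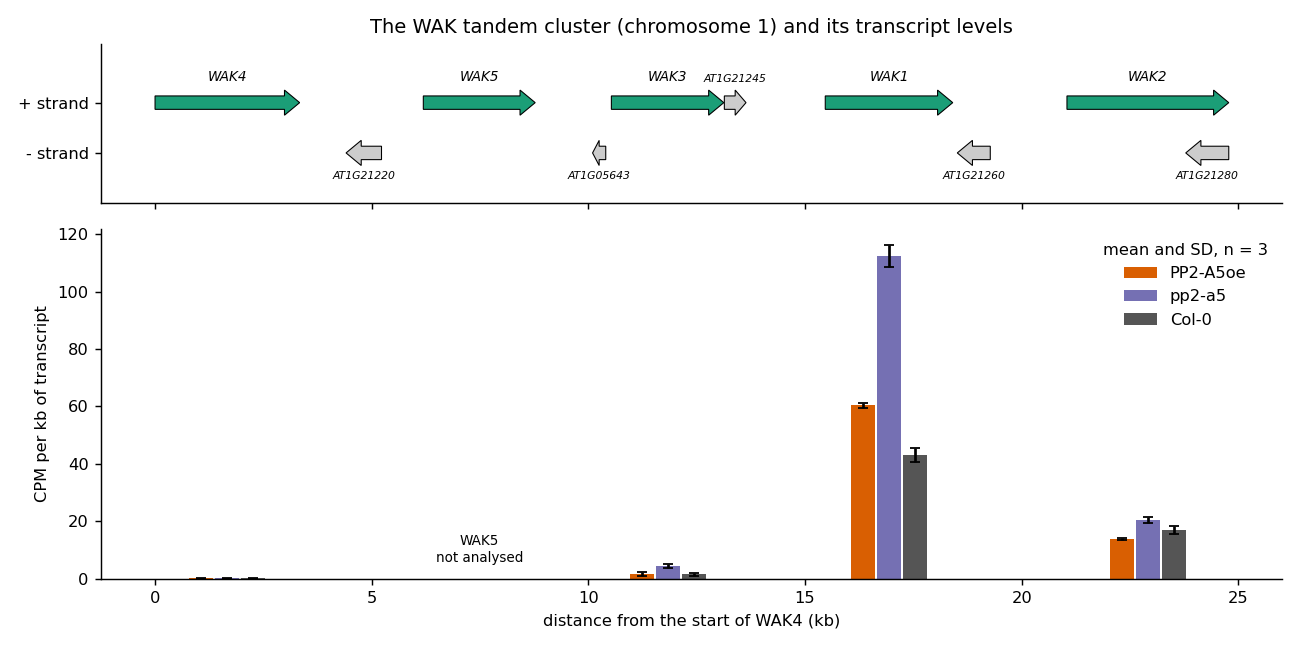
Map of the WAK cluster by distance from the start of WAK4 (x axis, kb; arrows are annotated genes by strand, green for the kinases), above the mean level per group in CPM per kb of transcript (bars, with the SD, n = 3). WAK1 reaches 112 CPM per kb in pp2-a5, 60.4 in PP2-A5oe and 43.0 in Col-0, while WAK4 stays near 0.

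WAK1 had 167, 165 and 170.1 CPM in PP2-A5oe libraries, 323, 303 and 309 CPM in pp2-a5, and 119, 112 and 125 CPM in Col-0, from 671 to 1991 counts per library. No library of any group overlapped another group. WAK1 was 2.62-fold higher in pp2-a5 than in Col-0, a log2 fold change of 1.39 ± 0.07 (standard error; adjusted p = 7.93e-18), the 16th smallest adjusted p among 13975 tested genes. In PP2-A5oe the rise was 1.40-fold, a log2 fold change of 0.49 ± 0.07 (adjusted p = 3.84e-07). Directly compared, PP2-A5oe was below pp2-a5 by a log2 fold change of -0.90 ± 0.06 (adjusted p = 3.85e-13).

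WAK2, the second most abundant member, had 49.1, 48.7 and 50.5 CPM in PP2-A5oe libraries, 77.2, 70.1 and 73.8 CPM in pp2-a5, and 56.4, 59.4 and 66.7 CPM in Col-0. All PP2-A5oe libraries lay below all Col-0 libraries, which in turn lay below all pp2-a5 libraries. WAK2 fell in PP2-A5oe (log2 fold change -0.30 ± 0.08, adjusted p = 0.00803) and rose in pp2-a5 (0.28 ± 0.08, adjusted p = 0.0113). Between the lines, WAK2 was lower in PP2-A5oe than in pp2-a5, at -0.58 ± 0.08 (adjusted p = 2.35e-06). Each call against Col-0 was lost on leaving out 1 or 2 libraries. The fall in PP2-A5oe was called without any single library (adjusted p 0.00698 to 0.0378). It was -0.22 (adjusted p = 0.0942) without PP2-A5oe replicate 2 and Col-0 replicate 3 together. Over 19 alternatives its adjusted p ranged from 0.0021 to 0.0942. The rise in pp2-a5 was 0.24 without pp2-a5 replicate 1 (adjusted p = 0.0583) and 0.23 without Col-0 replicate 1 (adjusted p = 0.0955). Its adjusted p ranged from 0.00114 to 0.0955.

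AT1G21280, the gene that overlaps the end of WAK2, had 10.3, 11.0 and 11.6 CPM in PP2-A5oe libraries, 11.4, 6.61 and 7.66 CPM in pp2-a5, and 7.26, 6.87 and 7.28 CPM in Col-0. It rose in PP2-A5oe (0.62 ± 0.18, adjusted p = 0.0116), where WAK2 fell, and was at 0.26 ± 0.19 in pp2-a5 (adjusted p = 0.381).

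With WAK1 and WAK2 moving unequally, the make-up of the cluster differed between groups. Counts of WAK1 were 3.37 to 3.40 times those of WAK2 in PP2-A5oe, 4.18 to 4.32 times in pp2-a5 and 1.88 to 2.12 times in Col-0, with no overlap between groups. WAK1 held 75.1% to 76.2% of the cluster's counts in PP2-A5oe, 78.2% to 78.8% in pp2-a5 and 63.5% to 66.0% in Col-0. The corresponding share of WAK2 was 22.1% to 22.6% in PP2-A5oe, 18.2% to 18.8% in pp2-a5 and 31.2% to 34.0% in Col-0. These shares are of counts and are not corrected for length.

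WAK3, the nearest kinase gene upstream of WAK1, was a low-level transcript, with 5.64, 4.33 and 2.42 CPM in PP2-A5oe libraries, 9.25, 11.6 and 12.0 CPM in pp2-a5, and 3.87, 2.51 and 5.23 CPM in Col-0. Every pp2-a5 library was above every other library, while PP2-A5oe and Col-0 overlapped. WAK3 rose 2.85-fold in pp2-a5 (log2 fold change 1.51 ± 0.23, adjusted p = 5.76e-06) and was at 0.11 ± 0.29 in PP2-A5oe (adjusted p = 0.826, 95% interval -0.47 to 0.70). PP2-A5oe was below pp2-a5 by -1.40 ± 0.23 (adjusted p = 2.19e-05). WAK3 counts amounted to 1.42% to 3.38% of those of WAK1 in PP2-A5oe, 2.86% to 3.90% in pp2-a5 and 2.24% to 4.17% in Col-0. The part that reads of WAK1, or of other places in the genome, from shared stretches had in these WAK3 counts was not tested.

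WAKL10, which shares no stretch of 50 bases with any other place in the genome, had 2.49, 2.16 and 2.59 CPM in PP2-A5oe libraries, 5.35, 5.46 and 5.63 CPM in pp2-a5, and 2.10, 2.18 and 2.80 CPM in Col-0. Its counts were 33, 33 and 36 in pp2-a5, and 12 to 15 in all other libraries. WAKL10 rose 2.33-fold in pp2-a5 (log2 fold change 1.22 ± 0.25, adjusted p = 0.000346) and was at 0.05 ± 0.30 in PP2-A5oe (adjusted p = 0.938, 95% interval -0.57 to 0.66). The direct difference between PP2-A5oe and pp2-a5 was -1.17 ± 0.25 (adjusted p = 0.000765).

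WAK4 had 4, 2 and 1 counts in PP2-A5oe, 3, 8 and 1 in pp2-a5, and 7, 4 and 1 in Col-0. A difference was not detectable at this depth. Fitted without a filter, WAK4 was at -0.75 on the log2 scale in PP2-A5oe against Col-0 (adjusted p = 0.579). The same fit put it at -0.09 in pp2-a5 against Col-0 (adjusted p = 0.999).

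**Figure D3:**
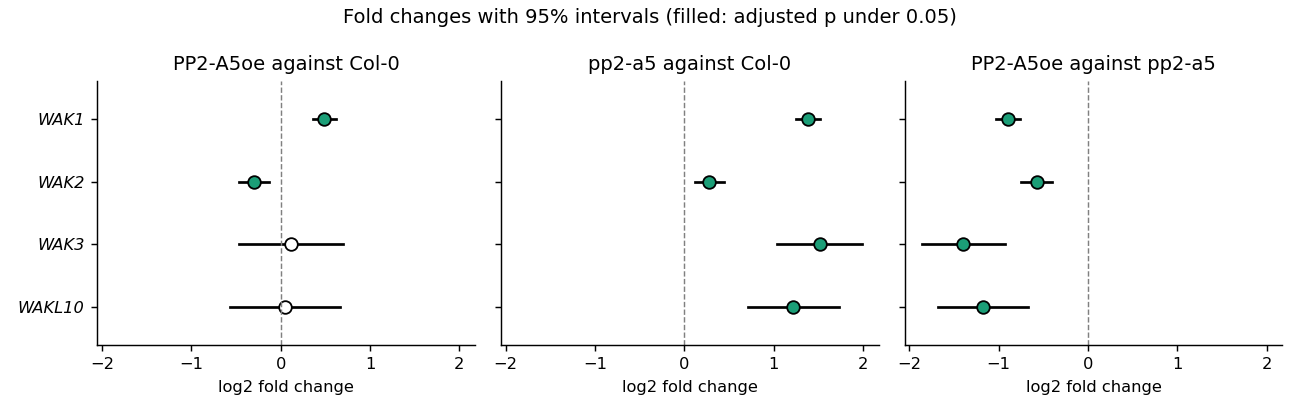
Log2 fold change (x axis) of the 4 tested wall-associated kinases in the 3 comparisons; points are fitted values, lines the 95% intervals, and filled points have an adjusted p under 0.05. All 4 are above 0 in pp2-a5 against Col-0 and below 0 in PP2-A5oe against pp2-a5, while WAK3 and WAKL10 span 0 in PP2-A5oe against Col-0.

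Set against all tested genes, 2 of the 4 tested kinases were called in PP2-A5oe against Col-0, where 25.0% of genes were called, 14.5% higher and 10.5% lower (2027 and 1469 genes, or 1769 and 2069 with upper-quartile scaling). All 4 were called higher in pp2-a5 against Col-0, against 12.3% of genes (8.47% were lower, 20.8% either), and all 4 were called lower in PP2-A5oe against pp2-a5, against 5.45% of genes (7.21% were higher, 12.7% either). With upper-quartile scaling the calls in pp2-a5 were 1536 higher and 1553 lower, against 1719 and 1183. Their median log2 fold change was 0.08 in PP2-A5oe against Col-0, 1.30 in pp2-a5 against Col-0 and -1.04 in PP2-A5oe against pp2-a5, where the medians over all genes were -0.02, -0.01 and 0.00. The replicates of the groups did not overlap for 2, 4 and 4 of the kinases, a condition met by 36.8%, 33.7% and 28.4% of genes. Each kinase also passed the level of the filter, 1.65 CPM, in every library, so that none entered through its high group alone. PP2-A5oe and pp2-a5 were compared with the same Col-0 libraries.

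Genes around the kinases were examined for comparison. Of the 10 annotated genes on each side of the cluster, 8 were tested: in PP2-A5oe 1 was called higher and 2 lower (median log2 fold change -0.08, range -0.64 to 2.79), and in pp2-a5 2 higher and 1 lower (median 0.04, range -0.51 to 2.08). Of the 20 genes around WAKL10, 12 were tested. In PP2-A5oe 1 of them was called higher and 3 lower (range -0.67 to 0.44), and in pp2-a5 none was called (range -0.25 to 0.37). Among all tested genes, 25.0% were called when PP2-A5oe was set against Col-0. That share was 20.8% for pp2-a5 against Col-0. When PP2-A5oe was set against pp2-a5, 1 of the 8 genes beside the cluster was called higher and 1 lower. The same comparison called 0 of the 12 genes around WAKL10, and 12.7% of all tested genes. Inside the cluster, the pseudogene AT1G21260 between WAK1 and WAK2 was not called in PP2-A5oe (0.05 ± 0.20, adjusted p = 0.891) or in pp2-a5 (-0.28 ± 0.20, adjusted p = 0.375). AT1G21245, a short gene directly after WAK3, had 0 counts in PP2-A5oe, 3 in pp2-a5 and 1 in Col-0.

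Across all 9 libraries, the pattern of WAK1 was most like that of PR5, a pathogenesis-related gene and marker of salicylic acid responses, at a root mean square difference of 0.05 in centred log2 CPM. PR5 had 23.9 ± 1.56 CPM in PP2-A5oe, 42.3 ± 1.21 CPM in pp2-a5 and 16.3 ± 1.12 CPM in Col-0. Next came SPX1, a phosphate sensor gene (0.06), and HR4, a homologue of the powdery mildew resistance gene RPW8 (0.07). HR4 had 130.2 ± 6.48 CPM in PP2-A5oe, 229 ± 8.78 CPM in pp2-a5 and 84.7 ± 4.35 CPM in Col-0. The genes nearest to WAKL10 were BGL2, the glucanase gene also called PR2 (0.05), PLA2A, a lipid acyl hydrolase gene (0.10), and RLP41, which encodes a receptor-like protein (0.11). BGL2 had 67.4 ± 4.41 CPM in PP2-A5oe, 144 ± 1.71 CPM in pp2-a5 and 66.7 ± 8.86 CPM in Col-0. WAK3 was nearest to NAC019, a transcription factor gene (0.22), to the subtilase gene SBT3.3 (0.26) and to AT3G48080 (0.26). For WAK2 these were AT5G39730 (0.05), the co-chaperone gene ATERDJ3B (0.08) and VIM3 (0.09), none of which was called in either line against Col-0. Among the kinases themselves, WAK1 and WAKL10 were nearest to each other (0.21) and WAK2 and WAK3 farthest apart (0.62). These distances describe the libraries and were not tested.

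Of 19 WAK-like genes, relatives of the cluster spread over the genome, 17 had rows and 6 were tested, while the other 11 averaged at most 1.16 CPM. In each line 3 of the 6 rose and none fell, where 14.5% of all tested genes rose in PP2-A5oe and 12.3% in pp2-a5. Their median log2 fold change was 0.19 in PP2-A5oe and 0.38 in pp2-a5. WAKL2 was at 8.37 ± 0.872 CPM in PP2-A5oe, 7.995 ± 0.767 CPM in pp2-a5 and 2.44 ± 0.611 CPM in Col-0, a log2 fold change of 1.76 ± 0.23 for PP2-A5oe (adjusted p = 2.85e-07) and of 1.70 ± 0.23 for pp2-a5 (adjusted p = 7.72e-07). Between the lines WAKL2 was at 0.06 ± 0.18 (adjusted p = 0.896), whereas the 4 kinases above were lower in PP2-A5oe. Of the 6 tested WAK-like genes, 1 was called lower in PP2-A5oe than in pp2-a5 and 0 higher (median -0.14). Of all tested genes, 5.45% were called lower. The 1 was AT1G69730, at -0.21 ± 0.07 (adjusted p = 0.0371), and WAKL6 was at -0.45 ± 0.18 (adjusted p = 0.114). WAKL6 rose by 1.07 ± 0.23 in PP2-A5oe and 1.52 ± 0.21 in pp2-a5, and AT1G69730, with 103.8 ± 2.61 CPM in PP2-A5oe, 119.8 ± 2.77 CPM in pp2-a5 and 84.7 ± 1.77 CPM in Col-0, rose by 0.29 ± 0.07 in PP2-A5oe and by 0.50 ± 0.07 in pp2-a5.

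Among 11 genes that act with wall-associated kinases or downstream of them, 8 were tested. EDS1, with at most 2 counts in any library, was not tested. Whether reads of EDS1 were lost or counted at another locus was not examined, so its level is uncertain. In PP2-A5oe 5 rose and in pp2-a5 4 rose, against 14.5% and 12.3% of all tested genes, and none fell in either line. The median was 0.27 in PP2-A5oe and 0.20 in pp2-a5. MPK3, a mitogen-activated protein kinase gene of pectin and immune signalling, had 284 ± 7.84 CPM in PP2-A5oe, 278 ± 22.4 CPM in pp2-a5 and 150.1 ± 4.93 CPM in Col-0, a log2 fold change of 0.92 ± 0.07 in PP2-A5oe and 0.89 ± 0.07 in pp2-a5. RBOHD, the oxidase gene of the immune oxidative burst, rose by 0.60 ± 0.07 in PP2-A5oe and 0.54 ± 0.07 in pp2-a5. PAD4, a lipase-like regulator of salicylic acid defence, rose by 0.33 ± 0.09 in PP2-A5oe and 0.68 ± 0.09 in pp2-a5, and was lower in PP2-A5oe than in pp2-a5 (-0.35 ± 0.09, adjusted p = 0.00421). Of the vacuolar invertase genes, ATBETAFRUCT4 rose by 0.40 ± 0.06 in PP2-A5oe (adjusted p = 2.53e-06) and by 0.22 ± 0.06 in pp2-a5 (adjusted p = 0.00714), and was higher in PP2-A5oe than in pp2-a5 (0.18 ± 0.06, adjusted p = 0.0367). AT1G62660, the other one, was not called in PP2-A5oe (0.07 ± 0.09, adjusted p = 0.597) or in pp2-a5 (-0.15 ± 0.09, adjusted p = 0.244). MPK6, a close relative of MPK3, was called in neither line, with a log2 fold change of 0.03 ± 0.07 in PP2-A5oe and -0.02 ± 0.07 in pp2-a5 against Col-0.

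Of 14 genes that release, modify or protect pectin, 8 were tested. In PP2-A5oe 6 fell and none rose (median -0.71), while in pp2-a5 2 fell and 1 rose (median 0.05). Of all tested genes, 10.5% fell and 14.5% rose in PP2-A5oe, and 8.47% fell and 12.3% rose in pp2-a5. Compared directly, 5 of the 8 pectin genes were lower in PP2-A5oe than in pp2-a5 and none was higher (median -0.26). Of all tested genes, 5.45% were lower and 7.21% higher in that comparison. AT2G45220, the pectin methylesterase gene PME17, had 18.6 ± 3.19 CPM in PP2-A5oe, 73.6 ± 5.35 CPM in pp2-a5 and 51.8 ± 5.44 CPM in Col-0. It fell by 1.48 on the log2 scale in PP2-A5oe (standard error 0.11, adjusted p = 1.06e-12) and rose by 0.51 ± 0.09 in pp2-a5 (adjusted p = 6.91e-05), the same directions as WAK2. The direct difference of PME17 between PP2-A5oe and pp2-a5 was -1.99 ± 0.11 (adjusted p = 2.48e-16). PGAZAT, a polygalacturonase gene, had 0.975 ± 0.161 CPM in PP2-A5oe, 6.75 ± 1.92 CPM in pp2-a5 and 5.59 ± 1.12 CPM in Col-0. In PP2-A5oe PGAZAT and AT1G62760 (1.46 ± 0.843 CPM), another gene of this list, averaged below the filter level of 1.65 CPM. Both entered the test through their levels in the other groups, and both are among the genes counted above as lower in PP2-A5oe. PMR6, a pectate lyase-like gene of powdery mildew susceptibility, fell in both lines, by 0.82 in PP2-A5oe and by 0.57 in pp2-a5 on the log2 scale.

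Genes known to be induced by oligogalacturonides, the fragments that WAK1 binds, were all tested. Of these 8, 5 rose and 1 fell in PP2-A5oe (median 1.86), and 7 rose in pp2-a5 (median 1.68). Of all tested genes, 14.5% rose and 10.5% fell in PP2-A5oe, and 12.3% rose in pp2-a5. Compared directly, 3 of the 8 were higher and 4 lower in PP2-A5oe than in pp2-a5, against 7.21% and 5.45% of all genes. These differences ran from -1.57 to 2.87 on the log2 scale. WRKY33 had 310 ± 11.5 CPM in PP2-A5oe, 233 ± 12.1 CPM in pp2-a5 and 75.5 ± 6.93 CPM in Col-0, and WRKY40 had 47.3 ± 6.17 CPM in PP2-A5oe, 19.7 ± 2.84 CPM in pp2-a5 and 5.16 ± 0.811 CPM in Col-0. Both transcription factor genes were higher in PP2-A5oe than in pp2-a5 (log2 fold change 0.41 ± 0.07 and 1.27 ± 0.11), the opposite of the kinases. WRKY53 was lower in PP2-A5oe than in pp2-a5 (-0.37 ± 0.09), with 54.4 ± 1.24 CPM in PP2-A5oe, 70.2 ± 6.89 CPM in pp2-a5 and 8.03 ± 2.32 CPM in Col-0.

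Of 7 core genes of salicylic acid responses, 5 were tested. The other 2, ICS1 (EDS16) and NIMIN1, had at most 5 counts in any library. In PP2-A5oe 3 of the 5 rose (median 0.40), against 14.5% of all tested genes. All 5 rose in pp2-a5 (median 1.38), against 12.3% of all tested genes. Compared directly, 4 of the 5 were lower in PP2-A5oe than in pp2-a5 and none was higher (median -0.91). Shares over all tested genes were 5.45% lower and 7.21% higher. DMR6, a salicylic acid hydroxylase gene, had 148 ± 7.32 CPM in PP2-A5oe, 278 ± 9.23 CPM in pp2-a5 and 79.3 ± 4.15 CPM in Col-0. Its order of groups was that of WAK1, with PP2-A5oe below pp2-a5 by -0.91 ± 0.06 (adjusted p = 4.19e-13). PR1, the classical marker, was at 0.21 ± 0.10 in PP2-A5oe (adjusted p = 0.143) and rose by 1.98 ± 0.09 in pp2-a5, and BGL2 was at 0.02 ± 0.08 in PP2-A5oe (adjusted p = 0.902) and rose by 1.12 ± 0.08 in pp2-a5. In PP2-A5oe, PR1 and BGL2 were not called, as WAK3 and WAKL10 were not, while PR5 (0.56), NPR1 (0.40) and DMR6 (0.90) rose. All PP2-A5oe libraries lay above all Col-0 libraries for PR1, whereas they overlapped for BGL2, WAK3 and WAKL10.

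**Figure D4:**
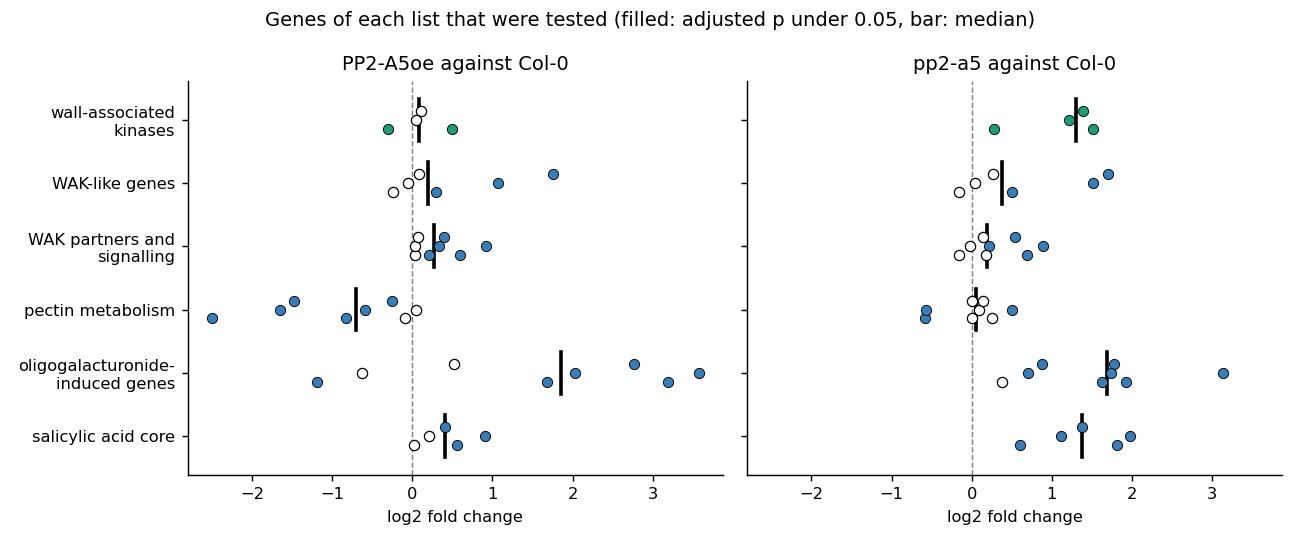
Log2 fold change (x axis) of the tested genes in each list, in PP2-A5oe against Col-0 (left) and pp2-a5 against Col-0 (right); points are genes, filled where the adjusted p is under 0.05, and black bars are medians. The kinases have a median of 0.08 in PP2-A5oe and 1.30 in pp2-a5, the pectin genes -0.71 in PP2-A5oe and 0.05 in pp2-a5, and the salicylic acid genes 0.40 in PP2-A5oe and 1.38 in pp2-a5.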

How the data were processed

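The authors deposited raw counts per locus, made against the TAIR10 genome per the labels; aligner, counting tool, gene models, strand setting and filters are not given in the sources read. It holds 22449 entries for 22155 loci, and the entries of the 294 loci listed more than once were summed; no kinase was among them. Names, positions and sequence were taken from the annotation of TAIR10.1, where 21952 loci were found. Of protein-coding genes with 1 annotated transcript 54.8% were tested, against 40.5% of those with more; WAK3 has 2 annotated transcripts, and whether this touches its counts was not tested.

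Counts were tested in R 4.3.3 with edgeR 4.0.16: filterByExpr (minimum count 10, minimum total 15) kept 13975 loci with 99.8% of the counts, TMM set the library scales, and all 9 libraries entered 1 quasi-likelihood fit with a mean per group (6 residual degrees of freedom). Standard errors are the log2 fold change divided by the square root of the quasi-likelihood F. A call needed an adjusted p under 0.05, by Benjamini-Hochberg over all tested loci. An exact permutation test of 3 against 3 cannot go below p = 0.1 and was not used. The fit was tested on simulated data. DESeq2 1.42.0 and limma 3.58.1 were alternatives; figures used matplotlib 3.10.9, and alignments Biopython 1.88. Likeness is the root mean square difference of log2 CPM (prior count 2), each gene centred on its mean.

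All 6 kinases are described whatever their values. From each list, up to 3 called genes with the smallest adjusted p in either line against Col-0 were named, and 3 genes most like each tested kinase. AT1G21280, AT1G21260, AT1G21245, AT1G62660, ATBETAFRUCT4 and MPK6 were named outside this rule. So were AT1G05643, AT1G62760, NPR1, the tissue markers, and EDS1, ICS1 and NIMIN1, which were not tested. The kinases, lists and tests were chosen with earlier results of these data known.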

Additional observations from a re-analysis of the deposited data

How the results depend on the processing

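Alternatives were upper-quartile and RLE scaling, DESeq2, limma-voom, no filter, a filter of 10 CPM in 3 libraries, fits of only the groups compared, separate entries, the replicate number as a block, leaving out each library and, added after seeing the data, leaving out both libraries with most mitochondrial counts (Col-0 replicate 3 and PP2-A5oe replicate 2). Under all of them WAK1 kept its direction and call in each comparison, at 0.44 to 0.53 in PP2-A5oe, 1.35 to 1.42 in pp2-a5 and -0.92 to -0.87 between the lines, and so did WAK3 and WAKL10 in pp2-a5 and between the lines wherever they were tested. With the stricter filter only WAK1 and WAK2 were tested, and 2 kinases were called in pp2-a5 and 2 between the lines. Without those 2 libraries 1 kinase was called in PP2-A5oe, as WAK2 was at -0.22. Leaving out single libraries moved WAK2 between 0.23 and 0.35 in pp2-a5, losing the call without Col-0 replicate 1 or pp2-a5 replicate 1 (0.24). In PP2-A5oe, where neither was called, WAK3 ranged from -0.18 to 0.39 and changed sign without Col-0 replicate 2 (-0.12) or PP2-A5oe replicate 1, and WAKL10 ranged from -0.034 (without Col-0 replicate 1) to 0.17 over single libraries left out, was also below 0 without Col-0 replicate 2 (-0.0052) or PP2-A5oe replicate 3 (-0.0056) and with upper-quartile scaling (-0.0013), and was at 0.24 without the 2 libraries of high mitochondrial share; the cause was not tested. Upper-quartile scaling gave 1769 higher and 2069 lower genes in PP2-A5oe, against 2027 and 1469 with TMM, and 1536 and 1553 in pp2-a5, against 1719 and 1183. Same-numbered libraries of different groups had correlations of deviations from -0.18 to 0.062, and differently numbered ones from -0.089 to 0.136. Whether replicates of the same number were grown or handled together cannot be told from these values. With the replicate block 3185, 2575 and 1571 genes were called in PP2-A5oe, in pp2-a5 and between the lines, and 2, 4 and 4 kinases. Depth limits WAK4, and WAK3 and WAKL10 rest on 12 to 77 counts per library.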
